A study of Mus musculus with 6 samples.

Results

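The collagen genes of the mouse were followed through single-cell RNA sequencing of 4T1 breast tumours. A gene was a member when its symbol in the deposited gene table read Col, a number, the letter a and a number, and 44 of 27933 gene symbols met this. They comprised 11 fibrillar, 6 basement membrane, 9 fibril-associated, 6 beaded filament, 3 network, 1 anchoring fibril, 4 transmembrane and 2 multiplexin collagens and 2 others. Balb/c mice carried tumours of 4T1, a line from a murine mammary carcinoma. In 3 libraries the tumour had received FVIO-MHT, mild magnetic hyperthermia with ferrimagnetic vortex iron oxide nanorings (FVIOs) given at 0.1 mg/cm3 of tumour and heated by an alternating field of 365 kHz for 10 min. The other 3 libraries came from tumours given PBS, and all tumours were taken 24 h later. The labels carry the same protocol text for both groups, so whether PBS tumours met the field is not given. They do not say that replicates are separate mice, and a p-value here covers only library-to-library spread, which may be technical. The age of the mice is not given either, and the tissue was dissociated with Liberase TL and DNase I and treated with red blood cell lysis buffer before Drop-seq.

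Collagens are the structural proteins of the extracellular matrix, and their chains wind around each other into long helices inside the cell before they are secreted. Fibrillar collagens assemble into the cables of connective tissue, which fibroblasts make for the most part, while type IV chains form the sheet-like network of basement membranes under epithelium and around vessels. In tumours, fibroblasts deposit much of the fibrillar matrix, and carcinoma cells and vessels contribute basement membrane.

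Promoters of 4 members are printed because the results turn on these genes. RefSeq promoters (GRCm38.p6, 250 bases before to 50 after each start) were available for 35 of the 44 members. Col4a1 and Col4a2, the main type IV chains, lie head to head on chromosome 8, and their start sites are 21 bases apart. In the first pair of sequences, capitals mark the 78 bases at chr8:11312777-11312854 that both windows hold, read on opposite strands. Col4a1 is at chr8:11312777-11313076 on the minus strand and Col4a2 at chr8:11312555-11312854 on the plus strand.
Col4a1: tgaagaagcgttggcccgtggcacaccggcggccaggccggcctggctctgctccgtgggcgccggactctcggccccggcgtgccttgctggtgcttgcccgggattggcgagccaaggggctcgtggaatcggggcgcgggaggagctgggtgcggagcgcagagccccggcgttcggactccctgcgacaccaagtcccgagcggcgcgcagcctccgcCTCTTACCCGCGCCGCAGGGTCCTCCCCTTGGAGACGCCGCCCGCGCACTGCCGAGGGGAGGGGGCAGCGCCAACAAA
Col4a2: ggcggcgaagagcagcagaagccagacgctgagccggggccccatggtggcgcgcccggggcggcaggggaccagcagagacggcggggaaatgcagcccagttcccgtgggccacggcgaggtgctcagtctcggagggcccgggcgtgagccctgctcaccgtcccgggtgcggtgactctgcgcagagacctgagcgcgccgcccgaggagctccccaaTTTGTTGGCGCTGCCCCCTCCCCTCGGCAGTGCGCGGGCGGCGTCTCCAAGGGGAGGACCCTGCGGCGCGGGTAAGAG
Col1a2 and Col3a1, the members with the most UMIs in fibroblast-like barcodes, have windows at chr6:4505368-4505667 and chr1:45311288-45311587, both on the plus strand. The Col1a2 window lies inside the gene span of the annotation used for positions below. Capitals mark CCAAT or its reverse complement ATTGG in Col1a2 and TATAAA in Col3a1.
Col1a2: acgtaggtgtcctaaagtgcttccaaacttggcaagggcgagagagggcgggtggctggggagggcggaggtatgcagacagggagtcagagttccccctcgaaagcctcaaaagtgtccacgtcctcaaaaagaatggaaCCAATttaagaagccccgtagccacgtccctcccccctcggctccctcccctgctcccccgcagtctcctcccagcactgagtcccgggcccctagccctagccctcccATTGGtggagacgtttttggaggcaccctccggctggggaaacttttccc
Col3a1: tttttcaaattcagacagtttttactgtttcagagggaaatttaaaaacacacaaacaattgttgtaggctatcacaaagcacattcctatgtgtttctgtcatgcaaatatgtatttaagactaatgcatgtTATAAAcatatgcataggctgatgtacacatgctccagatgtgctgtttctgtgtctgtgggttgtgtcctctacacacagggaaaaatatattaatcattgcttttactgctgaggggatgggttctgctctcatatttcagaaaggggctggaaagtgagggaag
The windows differ in base composition. The share of G and C was 74% for Col4a1, 73.7% for Col4a2, 61% for Col1a2 and 37.7% for Col3a1. Exact matches to 3 strings of letters were counted on both strands. CCAAT occurred 2 times in Col1a2 and 1 time each in Col4a1 and Col4a2, and 37.4% of 32851 RefSeq promoters of this length hold it. GGGCGG occurred 2 times in Col1a2, 1 time in Col4a1 and 3 times in Col4a2, and 35.7% of promoters hold it. TATAAA occurred 1 time in Col3a1, 117 bases before the start, and 13.6% of promoters hold it. These matches describe letters in the windows and were not tested as binding sites.

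Each library lists 5000 barcodes with between 678337 and 2207534 unique molecular identifiers (UMIs, which count captured mRNA molecules). Barcodes with at least 200 detected genes were kept, which left 332, 1049 and 2325 in FVIO-MHT libraries 1, 2 and 3 and 1080, 1462 and 482 in PBS libraries 1, 2 and 3. The median depth was between 400 and 834 UMIs per barcode. In all, 33 barcode sequences occurred in more than 1 library. Levels are given as CPM, the UMIs of a gene scaled to the same total for every class or library. A UMI marks the 3′ end of a molecule whatever its length, so genes are compared without division by length. Intervals are exact 95% Poisson or Clopper-Pearson intervals and cover counting error only.

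Cell classes came from clusters drawn without any collagen gene and were named from marker genes. Fibroblast-like barcodes met all 14 of their markers and were led by Rarres2, Dcn, Cpxm1, Aebp1 and Lum. Pericyte/smooth muscle-like barcodes met 13 of 14 (Rgs5, Myh11 and Acta2 among the leading genes), and endothelial-like barcodes met 14 of 14 (Plvap, Cdh5 and Pecam1). Library make-up was uneven. Fibroblast-like barcodes numbered 3, 55 and 100 in the FVIO-MHT libraries and 7, 25 and 35 in the PBS libraries, and endothelial-like barcodes 0, 19 and 112 against 11, 27 and 10. The labels name the cell type as murine breast cancer cells, and 2297 of the 6730 kept barcodes were tumour epithelial-like, with 0 of them in FVIO-MHT 1. A cluster of 1286 barcodes led by Hbb-bs and Krt7, with tumour epithelial markers beside haemoglobin, stayed unnamed, and 1169 of its barcodes lay in FVIO-MHT 3. A cluster of 373 barcodes led by Icos and Ctla4 stayed unnamed too.

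Collagens accounted for 21283 of 6038386 UMIs, or 0.352%. All 44 members had at least 1 UMI, but few carried most of them. Col1a2 had 6352 UMIs, Col3a1 3493 and Col1a1 2601, and all 3 are chains of the major interstitial fibrils. Col4a1 and Col7a1 had 1492 UMIs each and Col8a1 had 1049. A further 11 members had between 138 and 652 UMIs, and 5 members (Col14a1, Col17a1, Col4a5, Col27a1 and Col11a1) had between 23 and 91. The remaining 22 members had 1 to 18 UMIs each, 115 together, and 6 of them had a single UMI. Fibrillar members held 63.2% of collagen UMIs, basement membrane members 10.4%, the anchoring fibril gene Col7a1 7.01%, fibril-associated members 5.36%, network members 4.96%, beaded filament members 4.80%, multiplexins 3.71%, transmembrane members 0.507% and the others 0.0611%.

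Fibroblast-like barcodes were 3.34% of the kept barcodes and held 61.8% of collagen UMIs. Collagen made up 5.55% of their UMIs, against 1.63% in pericyte/smooth muscle-like, 0.550% in endothelial-like, 0.123% in tumour epithelial-like and 0.00965% in B/plasma-like barcodes. Tumour epithelial-like barcodes nevertheless held 20.7% of collagen UMIs and were the most numerous class. A class set against the rest is no test, because the classes are clusters of the same cells, so levels by class are a description.

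**Figure D1:**
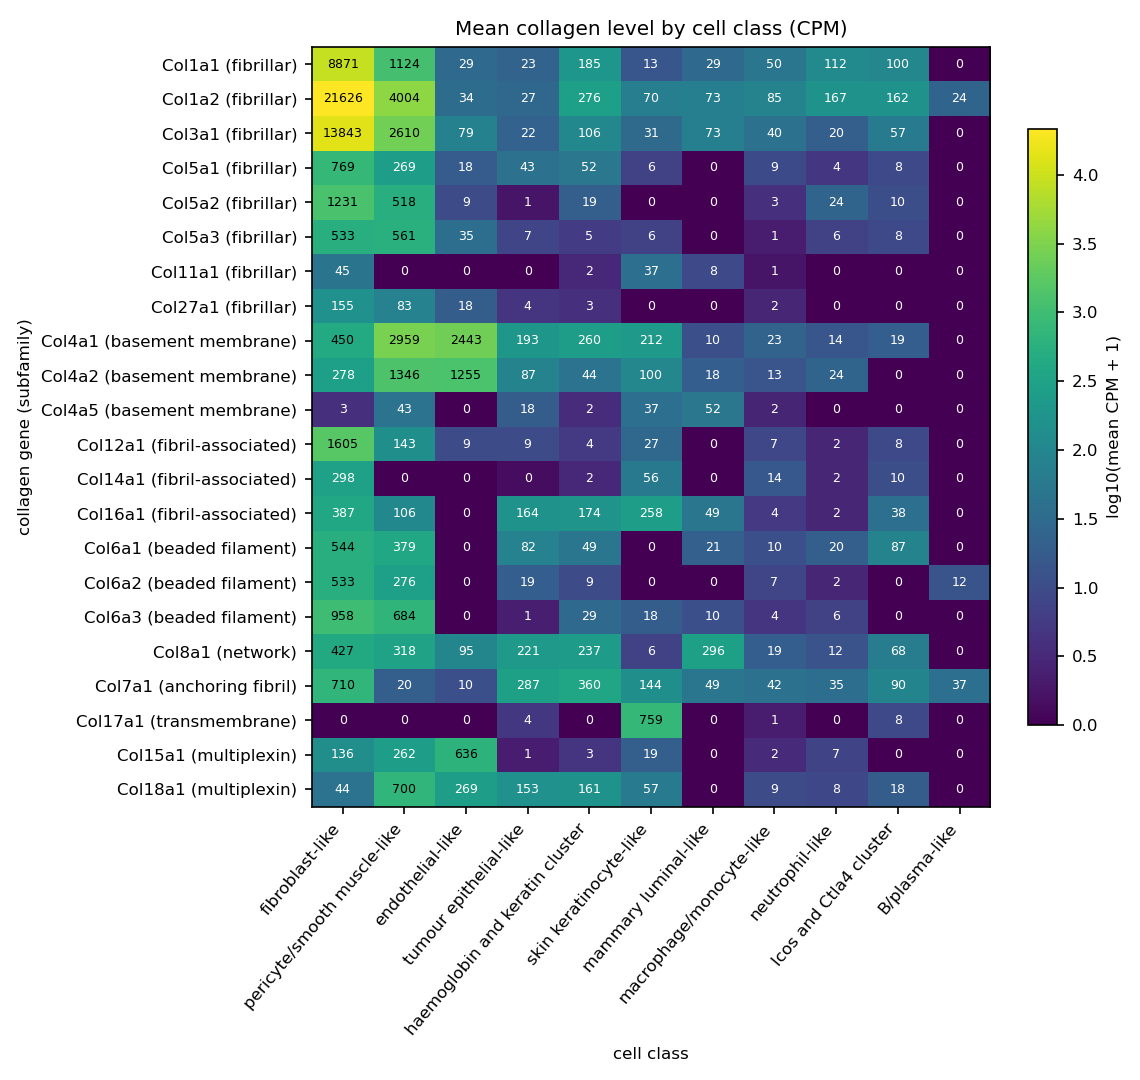
Mean level of the 22 collagen genes with at least 20 UMIs (rows, with their subfamily) in each cell class (columns), as log10 of the mean CPM plus 1 over libraries with enough barcodes of the class. High values are yellow and low ones dark. Fibrillar genes other than Col5a3 are highest in the fibroblast-like column, Col4a1 and Col4a2 in the pericyte/smooth muscle-like and endothelial-like columns, and Col17a1 in the skin keratinocyte-like column.

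The 22 members with at least 20 UMIs were highest, by the mean over libraries with at least 10 barcodes of the class, in fibroblast-like barcodes for 15, in pericyte/smooth muscle-like barcodes for 4, and in endothelial-like, skin keratinocyte-like and mammary luminal-like barcodes for 1 each. Some of these orders were close. Col5a3, a type V chain, averaged 561 CPM in pericyte/smooth muscle-like and 533 CPM in fibroblast-like barcodes, and Col4a2 averaged 1346 CPM in pericyte/smooth muscle-like and 1255 CPM in endothelial-like barcodes. Pericyte/smooth muscle-like means rest on FVIO-MHT libraries 2 and 3 alone, with 11 and 43 barcodes. Endothelial-like and fibroblast-like means also include PBS libraries, so these orders compare unlike sets of libraries.

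**Figure D2:**
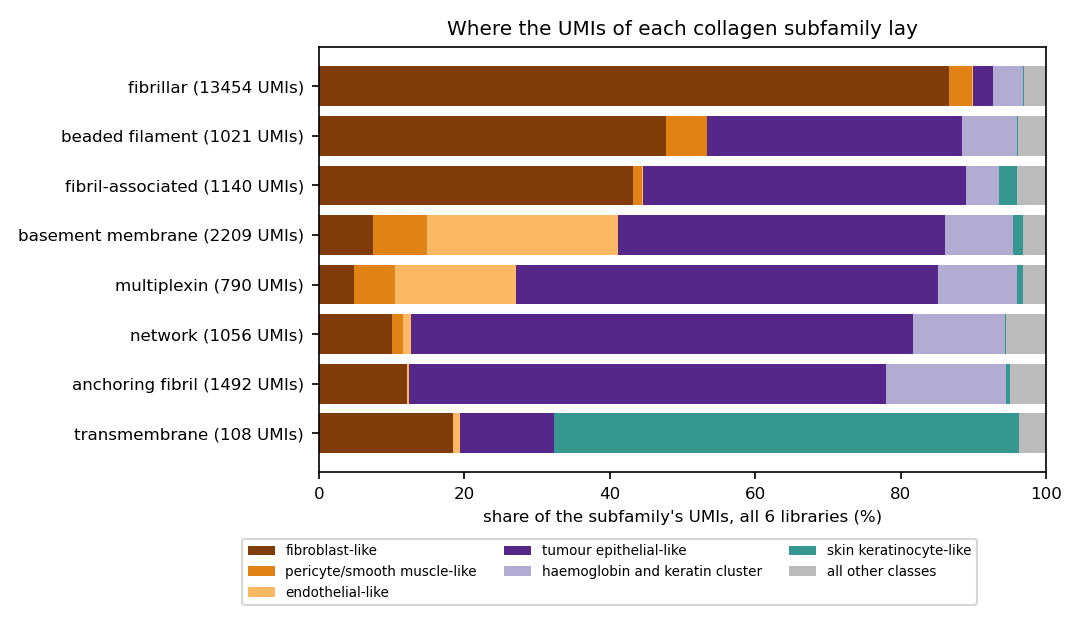
Share of each subfamily's UMIs (percent, all 6 libraries) held by each cell class, as stacked bars with the subfamily's UMI total beside its name. Fibroblast-like barcodes hold 86.7% of fibrillar UMIs, while tumour epithelial-like barcodes hold 45.0% of basement membrane and 69.0% of network UMIs.

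Fibrillar collagens were concentrated in fibroblast-like barcodes, which held 86.7% of 13454 fibrillar UMIs. Per library the share was 97.4%, 90.9% and 79.0% after FVIO-MHT and 68.7%, 86.5% and 93.4% after PBS (mean 86.0% ± 10.6, SD, n = 6). Col1a2, the alpha-2 chain of type I collagen (chr6:4504814-4541544), averaged 21627 CPM ± 4995 in fibroblast-like barcodes (SD, n = 4 libraries) and 4004 CPM in pericyte/smooth muscle-like barcodes, a ratio of 5.40. Col1a1, its alpha-1 partner (chr11:94936224-94953042), averaged 8871 and 1124 CPM in the same classes, a ratio of 7.89. Col3a1, the type III chain that co-assembles with type I (chr1:45311538-45349706), averaged 13843 and 2610 CPM. Coordinates are on GRCm38 and cover the whole gene, exons and introns. Type V chains, which regulate fibril width, were lower: Col5a2 averaged 1231 CPM and Col5a1 769 CPM in fibroblast-like barcodes. Col27a1, another fibrillar chain, averaged 155 CPM and Col11a1 44.9 CPM there.

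Most fibroblast-like barcodes carried the main fibrillar chains. A Col1a2 UMI was found in 92.9% of the 225 fibroblast-like barcodes (95% interval 88.7 to 95.9%), and 90.1% after thinning each barcode to 300 UMIs. In B/plasma-like barcodes, which should lack it, the share was 0.562% of 178, and in neutrophil-like barcodes 9.21% of 749. PBS 1, the library with the least fibrillar collagen, held 176 of the B/plasma-like barcodes, and in FVIO-MHT 2 alone the Col1a2 share was 16.4% of 396 neutrophil-like and 11.2% of 223 macrophage/monocyte-like barcodes. The median depth was 750 UMIs in fibroblast-like, 349 in B/plasma-like and 428 in neutrophil-like barcodes. Col1a1 was seen in 86.2% and Col3a1 in 84.4% of fibroblast-like barcodes, or 76.9% and 78.8% after thinning. All 3 chains were present in 172 barcodes (76.4%). The level varied widely within the class, from 0 to 19.4% of a barcode's UMIs with a median of 5.02%, and the 23 richest barcodes held 40.2% of the class's collagen UMIs.

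Fibril-associated collagens sit on the surface of fibrils. Col12a1 was highest in fibroblast-like barcodes at 1605 CPM, against 143 CPM in pericyte/smooth muscle-like barcodes, a ratio of 11.3, the widest among the 15 members that were highest in this class. Col14a1, a related chain with 91 UMIs, averaged 298 CPM in fibroblast-like barcodes. Col16a1 differed in that 73.7% of its 634 UMIs lay in tumour epithelial-like barcodes, although its level was highest in fibroblast-like barcodes (387 CPM), then skin keratinocyte-like (258 CPM), with 164 CPM in tumour epithelial-like barcodes.

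Basement membrane collagens had a different home. Of 2209 UMIs, tumour epithelial-like barcodes held 45.0%, endothelial-like 26.2%, pericyte/smooth muscle-like 7.51% and fibroblast-like 7.42%. By level the order was different: Col4a1 (chr8:11198423-11312826, minus strand) averaged 2959 CPM ± 590 in pericyte/smooth muscle-like barcodes (SD, n = 2), 2443 CPM ± 1175 in endothelial-like (n = 5), 450 CPM ± 295 in fibroblast-like (n = 4) and 193 CPM ± 64.0 in tumour epithelial-like barcodes (n = 5). The first pair of classes did not differ beyond their spread, and their means rest on unlike sets of libraries. Over the FVIO-MHT libraries alone, the only ones in the pericyte/smooth muscle-like mean, endothelial-like barcodes averaged 3688 CPM (n = 2). That is above the pericyte/smooth muscle-like mean of 2959 CPM. By means over the same unlike sets, Col4a2 (chr8:11312805-11449287, plus strand) had 1346, 1255, 278 and 87.0 CPM in the same order of classes. Col4a1 and Col4a2 overlap at their 5′ ends on opposite strands, and whether the counting used strand is not given, although 3′ tags lie at the other end of each gene. Col4a5, an alternative type IV chain on chromosome X, had 76 UMIs, of which 78.9% lay in tumour epithelial-like barcodes. Col4a3, Col4a4 and Col4a6 had 1, 4 and 4 UMIs.

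Col4a1 UMIs outnumbered those of Col4a2 in each of the main classes. The ratio was 2.88 in endothelial-like (95% interval 2.38 to 3.49), 2.24 in pericyte/smooth muscle-like (1.59 to 3.17), 2.16 in tumour epithelial-like (1.87 to 2.48) and 1.89 in fibroblast-like barcodes (1.36 to 2.67). The intervals of these 4 classes overlap. Type IV networks contain both chains, and a ratio of 3′ tags also depends on how well each transcript is captured.

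Multiplexins, which sit in basement membrane zones and carry endostatin-like ends, split by cell class. Col15a1 was highest in endothelial-like barcodes at 636 CPM, against 262 CPM in pericyte/smooth muscle-like and 136 CPM in fibroblast-like barcodes. Endothelial-like barcodes held 58.0% of its 138 UMIs. Col18a1 was highest in pericyte/smooth muscle-like barcodes at 700 CPM, with 269 CPM in endothelial-like and 153 CPM in tumour epithelial-like barcodes, and 69.6% of its 652 UMIs lay in tumour epithelial-like barcodes.

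Most beaded filament, network and anchoring UMIs lay in fibroblast-like and tumour epithelial-like barcodes, in different proportions for each chain. Type VI filaments, built from Col6a1, Col6a2 and Col6a3, link cells to the surrounding matrix. In fibroblast-like barcodes these genes averaged 544, 533 and 958 CPM, and in tumour epithelial-like barcodes Col6a1 averaged 81.8 CPM and Col6a2 18.8 CPM. Of Col6a3 UMIs, 78.9% lay in fibroblast-like, 9.90% in pericyte/smooth muscle-like and 0.990% in tumour epithelial-like barcodes. Col7a1, whose anchoring fibrils tie epithelial basement membrane to the stroma, had 65.5% of its 1492 UMIs in tumour epithelial-like, 16.4% in the haemoglobin and keratin cluster and 12.1% in fibroblast-like barcodes. Its mean level was 710 CPM in fibroblast-like, 360 CPM in the haemoglobin and keratin cluster and 287 CPM in tumour epithelial-like barcodes. Col8a1, a network chain, averaged 427 CPM in fibroblast-like, 318 CPM in pericyte/smooth muscle-like, 296 CPM in mammary luminal-like and 221 CPM in tumour epithelial-like barcodes, and 69.4% of its UMIs lay in tumour epithelial-like barcodes. Col7a1 in fibroblast-like barcodes varied between libraries, with 0, 1029 and 527 CPM in the FVIO-MHT libraries and 3656, 1024 and 258 CPM in the PBS libraries. Of the 18 UMIs in PBS 1, 10 came from 1 barcode.

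Tumour epithelial-like barcodes carried some chains of a collagen type with few UMIs of their partners. For type VI they held 281 Col6a1 UMIs but 3 Col6a3 UMIs, a Col6a3 to Col6a1 ratio of 0.0107 (95% interval 0.00219 to 0.0315). Fibroblast-like barcodes held 239 Col6a3 and 121 Col6a1 UMIs, a ratio of 1.98 (1.58 to 2.48). In every library with the class Col6a3 was the lower: it had 0 and 2 UMIs in FVIO-MHT libraries 2 and 3 and 0, 0 and 1 in the PBS libraries, against 41 and 31 Col6a1 UMIs after FVIO-MHT and 60, 131 and 18 after PBS. For type V, tumour epithelial-like barcodes held 136 Col5a1 UMIs and 4 Col5a2 UMIs, a Col5a2 to Col5a1 ratio of 0.0294 (0.00790 to 0.0770), against 1.55 (1.29 to 1.88) in fibroblast-like barcodes. Col5a2 had 0 and 2 UMIs in the FVIO-MHT libraries and 0, 2 and 0 in the PBS libraries, beside 19 and 21 Col5a1 UMIs after FVIO-MHT and 40, 47 and 9 after PBS. Col6a1 also exceeded Col6a2 in tumour epithelial-like barcodes, with a ratio of 3.90 (3.00 to 5.13) against 0.984 (0.759 to 1.27) in fibroblast-like barcodes. In the haemoglobin and keratin cluster the Col6a3 to Col6a1 ratio was 0.657 and the Col5a2 to Col5a1 ratio 0.857.

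**Figure D3:**
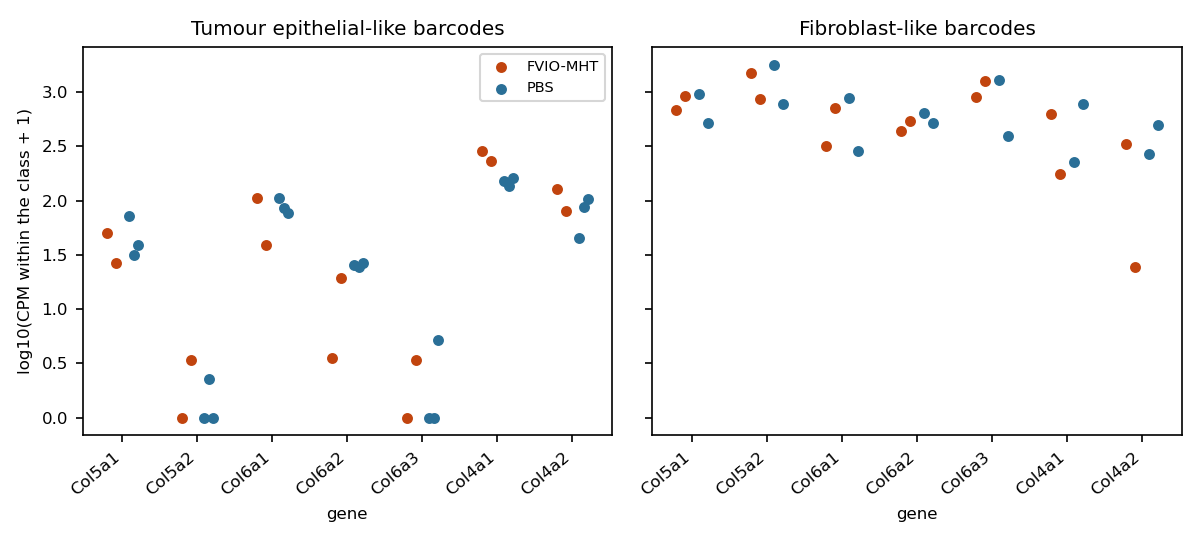
Level of each chain, as log10 of CPM within the class plus 1, in tumour epithelial-like and fibroblast-like barcodes, 1 point per library in the colours of FVIO-MHT and PBS. Col6a3 and Col5a2 lie near the bottom in tumour epithelial-like barcodes, where Col6a1 and Col5a1 do not, and are high in fibroblast-like barcodes.

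Tumour epithelial-like barcodes fell into 4 clusters, led by Cxcl5 and Csf3 (457 barcodes), by the cell cycle genes Cenpf and Cenpe (592), by Cp and Slco2a1 (424) and by Dtd2 and Hes1 (824). Col16a1 had 284, 72.6, 206 and 89.8 CPM in them over all libraries. Within libraries the Cenpf and Cenpe cluster had the lowest Col16a1 value of 4 clusters in FVIO-MHT 2 (178 CPM) and PBS 1 (73.5 CPM) and the lower of the 2 clusters with values in FVIO-MHT 3, at 54.1 CPM (39.1 to 72.8) against 532 CPM (214 to 1096). In PBS 2 it had 73.2 CPM (41.8 to 119) and the Dtd2 and Hes1 cluster 82.2 CPM (66.3 to 101), which are not separated, and in PBS 3 it was not the lowest. Col7a1 had 393, 289, 354 and 180 CPM in the same clusters over all libraries, but within PBS 1 it had 423, 269, 706 and 675 CPM and within PBS 2 235, 169, 268 and 168 CPM, so the place of the Dtd2 and Hes1 cluster differed between libraries. The libraries hold different mixtures, since 400 of the 437 tumour epithelial-like barcodes of FVIO-MHT 3 lay in the Cenpf and Cenpe cluster and 679 of the 1056 of PBS 2 in the Dtd2 and Hes1 cluster.

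Transmembrane collagens had few UMIs, 108 in all, and 63.9% lay in skin keratinocyte-like barcodes. That share came mainly from Col17a1, with 83.75% of its 80 UMIs in the class. Fibroblast-like barcodes held 83.3% of the 18 Col23a1 UMIs, 60% of the 5 Col25a1 UMIs and 40% of the 5 Col13a1 UMIs. Col17a1, a hemidesmosome protein of basal keratinocytes, averaged 759 CPM in skin keratinocyte-like barcodes, and the next class had 7.90 CPM. It had 1483 CPM in FVIO-MHT 2 and 385 and 408 CPM in PBS libraries 2 and 3, the libraries with at least 10 such barcodes. The single FVIO-MHT value lies above both PBS values, and with 1 library in a group the difference has no replicate check.

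Genes that trim, crosslink and bind collagen were mostly highest in the class where the fibrillar members were highest, and 5 of 11 folding and modification genes were. Of the genes with at least 100 UMIs, all 7 of 7 for propeptide removal and crosslinking and 7 of 8 collagen-binding proteoglycans and matricellular proteins were highest in fibroblast-like barcodes, although Dcn, Lum and Pcolce were also naming markers of that class. Serpinh1, the collagen chaperone, reached 1590 CPM in fibroblast-like and 813 CPM in pericyte/smooth muscle-like barcodes. Lox, which crosslinks fibrils, had 578 CPM and Adamts2, which trims fibrillar propeptides, 544 CPM in fibroblast-like barcodes. Sparc, a collagen-binding matricellular protein, had 15112 CPM in fibroblast-like, 7816 CPM in pericyte/smooth muscle-like and 5302 CPM in endothelial-like barcodes. Basement membrane partners were spread more widely, with 3 of 10 highest in endothelial-like barcodes (Hspg2, perlecan, at 503 CPM) and 2 of 10 in tumour epithelial-like barcodes (Lama5, a laminin chain, at 328 CPM). Of the receptors, the integrin chain Itga1 was highest in pericyte/smooth muscle-like barcodes at 1468 CPM and Lair1, an inhibitory receptor of leukocytes, in macrophage/monocyte-like barcodes at 187 CPM.

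The collagen share of a library's UMIs varied more within groups than between them. It was 0.159%, 0.760% and 0.432% in the FVIO-MHT libraries and 0.128%, 0.153% and 0.559% in the PBS libraries (two-sided exact permutation test, p = 0.5, where 3 against 3 cannot give less than 0.1). Fibrillar collagens had 1484, 5809 and 2650 CPM after FVIO-MHT and 207, 576 and 4398 CPM after PBS (exact permutation p = 0.5). Basement membrane collagens had 27.6, 518 and 545 CPM after FVIO-MHT and 191, 245 and 340 CPM after PBS (exact permutation p = 0.6). The groups overlap for all 3 measures, and PBS 3 sits among the FVIO-MHT libraries for fibrillar collagens. A whole-tumour sum combines the number of fibroblasts and the collagen RNA in each. The fibroblast-like share of UMIs was 1.69%, 8.74% and 4.89% after FVIO-MHT and 0.559%, 1.42% and 8.22% after PBS, and the summed level of the 14 fibroblast markers, all detected in 5 libraries and 12 of them in PBS 1, was 513, 2447 and 889 CPM after FVIO-MHT and 576, 554 and 2364 CPM after PBS. The marker sum is not specific to fibroblasts, since 70.9% of the UMIs of the marker Pcolce lay in tumour epithelial-like barcodes. Collagen made up 9.01%, 6.70% and 4.84% of the UMIs of fibroblast-like barcodes after FVIO-MHT and 3.78%, 4.47% and 5.45% after PBS, where FVIO-MHT 1 had 3 such barcodes and PBS 1 had 7. Their part in the collagen levels was not tested.

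**Figure D4:**
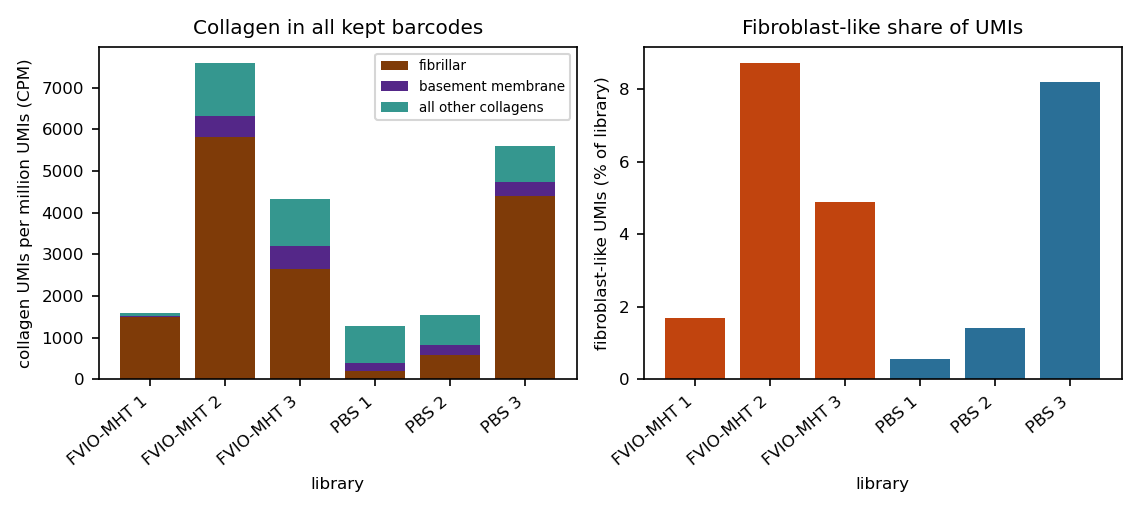
Left, collagen CPM in all kept barcodes of each library, stacked by subfamily; right, fibroblast-like UMIs as a percent of the library, FVIO-MHT libraries first. FVIO-MHT 2 and PBS 3 are the highest in both panels, and PBS 1 is the lowest in both.

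Across whole tumours no collagen passed the test between FVIO-MHT and PBS. The edgeR quasi-likelihood test over 8603 genes called 0 genes at an adjusted p of 0.05 (0%), with 451 genes (5.24%) at an unadjusted p under 0.05, and DESeq2 called 185. Of the 44 members 20 passed the filter on low counts, 16 had a positive log2 fold change and 4 a negative one, with a median of 0.37 against -0.04 over all genes tested. A single member, 1 of 20, had an unadjusted p under 0.05. It was Col6a3, a type VI chain, at 11.0, 92.1 and 85.3 CPM after FVIO-MHT and 11.4, 20.5 and 44.6 CPM after PBS. FVIO-MHT 1 lies with the PBS libraries and the groups overlap. Its log2 fold change was 1.51 ± 0.65 (SE) with adjusted p = 0.878 in edgeR.

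None of the other members had an unadjusted p under 0.05. Col1a2 had 811, 2596 and 1483 CPM after FVIO-MHT and 84.0, 252 and 1555 CPM after PBS, and a log2 fold change of 1.498 ± 0.991. Only PBS 3 reached the FVIO-MHT levels. Col1a1 had 331, 1470 and 406 CPM after FVIO-MHT and 24.99, 107 and 607 CPM after PBS (1.70 ± 1.07). Col3a1 had 281, 1413 and 552 CPM after FVIO-MHT and 18.2, 132 and 2005 CPM after PBS, and its log2 fold change of 0.16 ± 1.32 ranged from -0.53 to 3.37 when 1 library was left out, the highest value without PBS 3. These chains of interstitial fibrils share the same low libraries. Leaving out 1 library moved Col1a2 between 0.97 (without PBS 1) and 3.37 (without PBS 3), Col1a1 between 0.92 (without FVIO-MHT 2) and 3.56 (without PBS 3), Col5a2 between 0.57 (without FVIO-MHT 2) and 2.03 (without PBS 3) and Col12a1 between 0.16 (without FVIO-MHT 2) and 1.34. Col15a1 (1.11 ± 0.56), Col5a2 (1.19 ± 0.69), Col12a1 (1.05 ± 0.66), Col4a1 (0.76 ± 0.76) and Col4a2 (0.18 ± 0.85) completed the set, and the adjusted p of the 20 members lay between 0.878 and 0.999 in edgeR.

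No member had every FVIO-MHT library above every PBS library, where 3.17% of genes did. Col4a5 was below in every library, with 0, 14.4 and 9.16 CPM against 14.8, 14.5 and 14.9 CPM, where 9.46% of genes were. In FVIO-MHT 1, 3 UMIs equal 16.6 CPM, so its 0 lies below what could be measured. That library also had 0 tumour epithelial-like barcodes, the class with 78.9% of Col4a5 UMIs. FVIO-MHT 2 (14.43 CPM, 13 UMIs) and PBS 2 (14.53 CPM, 27 UMIs) were nearly equal. With fibroblast-like and pericyte/smooth muscle-like barcodes left out, a choice made after seeing the data, 0 of 8331 genes were called by edgeR, 453 having an unadjusted p under 0.05. Col1a2 then had a log2 fold change of 3.14 ± 0.82 (adjusted p = 0.888 in edgeR), and fibrillar collagens together had 39.3, 466 and 445 CPM after FVIO-MHT and 65.1, 60.2 and 219 CPM after PBS. This sum still includes the unnamed haemoglobin and keratin cluster, with 1169 barcodes in FVIO-MHT 3. Of the 728 fibrillar UMIs of FVIO-MHT 3, that cluster held 296 from Col1a2, 86 from Col1a1 and 95 from Col3a1. Its part in the difference was not tested.

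The barcodes under 200 genes, most of them shallow, held fibrillar collagen at 208, 3442 and 1629 CPM in the FVIO-MHT libraries and 79.8, 305 and 2376 CPM in the PBS libraries. The order of the libraries there is close to that of the kept barcodes. Col1a2 in macrophage/monocyte-like barcodes had 0, 222 and 241 CPM after FVIO-MHT and 0, 6.39 and 43.6 CPM after PBS. Within FVIO-MHT 3 the Col1a2 to Col1a1 ratio was 3.69 in fibroblast-like, 3.58 in the barcodes under 200 genes, 3.53 in macrophage/monocyte-like and 3.78 in tumour epithelial-like barcodes. In FVIO-MHT 2 the same ratio was 1.82, 1.52, 1.03 and 0.815 in the same order. Within FVIO-MHT 2 the Col3a1 to Col1a1 ratio was 1.02 in fibroblast-like barcodes but 0.204 in the barcodes under 200 genes, 0.233 in macrophage/monocyte-like and 0.185 in tumour epithelial-like barcodes. In FVIO-MHT 3 that ratio was 1.41, 0.984, 0.6 and 1.78 in the same order, so the pairs differ in how the classes compare. The part of free RNA in low collagen levels outside fibroblast-like barcodes was not tested.

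Within fibroblast-like barcodes the comparison could use libraries 2 and 3 of each group, the ones with at least 20 barcodes. The edgeR test called 0 of 1125 genes (0%), with 44 genes (3.91%) at an unadjusted p under 0.05, and DESeq2 called 3. Of 17 members tested, 7 had a positive and 10 a negative log2 fold change, with a median of -0.15 against 0.02 over all genes, and 0 had an unadjusted p under 0.05. Col1a2 was the single member whose libraries did not overlap with FVIO-MHT above, where 16.3% of genes lay, and 0 members lay below, where 14.9% did. It had 27284 and 24262 CPM after FVIO-MHT and 16607 and 18353 CPM after PBS, or 25773 ± 2136 and 17480 ± 1235 CPM (SD, n = 2 each). Its log2 fold change was 0.50 ± 0.48 with adjusted p = 0.998 in edgeR. In the libraries below 20 barcodes, FVIO-MHT 1 had 46048 CPM from 141 UMIs in 3 barcodes and PBS 1 had 13810 CPM from 68 UMIs in 7. Over all 3 libraries per group, a choice made after seeing the data, Col1a2 averaged 32531 ± 11803 CPM after FVIO-MHT and 16257 ± 2292 CPM after PBS (SD, n = 3 each). The ratio was 2.00 and every FVIO-MHT value exceeded every PBS value, an order whose share over all genes was not counted. The edgeR fit on this set, with 1 of 510 genes called, gave Col1a2 a log2 fold change of 0.89 ± 0.51 (adjusted p = 0.985). The two-sided exact permutation p for these CPM values was 0.1, the smallest that 3 against 3 can give. Groups without overlap always give this value, so it adds nothing to that order.

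The libraries overlapped for the partner chains. Col1a1 had 14995 and 6584 CPM after FVIO-MHT and 6900 and 7005 CPM after PBS (log2 fold change 0.61 ± 0.63), so a single FVIO-MHT library was above. Col3a1 had 15326 and 9267 CPM after FVIO-MHT and 8265 and 22515 CPM after PBS (-0.36 ± 0.65). Col12a1 had 1716 and 902 CPM after FVIO-MHT and 3261 and 543 CPM after PBS (-0.58 ± 0.91). High and low libraries are mixed across the groups for all 3 genes. Col4a2 (-1.11 ± 1.06), Col14a1 (-0.79 ± 0.85), Col6a2 (-0.33 ± 0.60) and Col4a1 (-0.37 ± 0.87) had adjusted p = 0.998 in edgeR as well. Without FVIO-MHT 2, Col4a2 reached -4.10 with an adjusted p of 0.0453 in edgeR, where 1 FVIO-MHT library was left. The fibroblast markers themselves differed between these libraries, with a summed level of 20002 and 6877 CPM in FVIO-MHT 2 and 3 and 10389 and 21248 CPM in PBS 2 and 3, and pericyte/smooth muscle markers summed to 432 and 1406 CPM against 1972 and 465 CPM, with between 6 and 9 of 14 detected. Their part in these values was not tested.

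**Figure D5:**
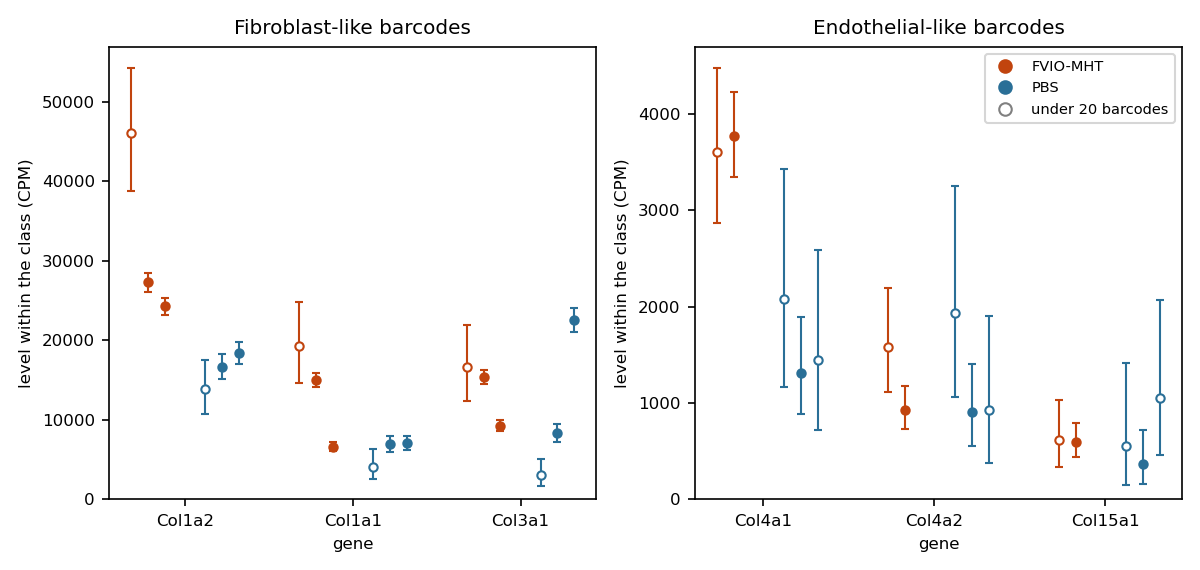
Level within the class (CPM, 1 point per library, open where the library had under 20 barcodes) of 3 fibrillar genes in fibroblast-like barcodes and of Col4a1, Col4a2 and Col15a1 in endothelial-like barcodes, FVIO-MHT left of PBS. The FVIO-MHT points lie above the PBS points for Col1a2 and for Col4a1, and the groups overlap for the other genes.

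In endothelial-like barcodes Col4a1 was higher in both FVIO-MHT libraries than in the PBS libraries, but too few libraries were deep enough for a firm comparison. A single library per group had at least 20 barcodes, FVIO-MHT 3 and PBS 2, with a log2 ratio of 1.52 and no replicate check. With at least 10 barcodes, a choice made after seeing the data, Col4a1 had 3609 (95% interval 2870 to 4480) and 3768 (3348 to 4226) CPM after FVIO-MHT and 2076 (1162 to 3424), 1313 (880 to 1886) and 1447 (722 to 2588) CPM after PBS. The means were 3688 ± 112 CPM after FVIO-MHT and 1612 ± 407 CPM after PBS (SD, n = 2 and 3), a ratio of 2.29. The two-sided exact permutation p was 0.2, the smallest these numbers allow. Any groups without overlap give that value, so it adds nothing to the order of the libraries. In edgeR over 468 genes, where 0 were called and 23 (4.91%) had an unadjusted p under 0.05 (DESeq2 was not run there), Col4a1 had a log2 fold change of 1.23 ± 0.44 and adjusted p = 0.805. Of 3 members tested it was 1 that did not overlap with FVIO-MHT above, where 11.1% of genes lay.

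The groups overlapped for the neighbouring gene and for Col15a1. Col4a2 had 1584 and 929 CPM after FVIO-MHT and 1937, 906 and 921 CPM after PBS (log2 fold change 0.03 ± 0.52), and Col15a1 had 616 and 594 CPM after FVIO-MHT and 554, 362 and 1052 CPM after PBS (0.01 ± 0.54). The Col4a1 to Col4a2 ratio in endothelial-like barcodes was 2.28 (1.52 to 3.47) and 4.06 (3.12 to 5.32) after FVIO-MHT and 1.07 (0.482 to 2.40), 1.45 (0.793 to 2.704) and 1.57 (0.556 to 4.78) after PBS. It averaged 3.17 ± 1.26 after FVIO-MHT and 1.36 ± 0.261 after PBS (SD, n = 2 and 3). The two-sided exact permutation p was 0.2, the smallest possible and the value that any groups without overlap give here. The interval of FVIO-MHT 2 overlaps those of all 3 PBS libraries. Pericyte/smooth muscle markers in the same barcodes summed to 176 and 516 CPM after FVIO-MHT and 138, 1132 and 395 CPM after PBS, and their part was not tested. In pericyte/smooth muscle-like barcodes a single library had at least 20, so the test was not run, and Col4a1 had 3376 and 2541 CPM in FVIO-MHT 2 and 3 and 6897, 768 and 1314 CPM in the PBS libraries with 2, 6 and 4 barcodes.

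In tumour epithelial-like barcodes (FVIO-MHT libraries 2 and 3, PBS libraries 1 to 3) edgeR called 0 of 7526 genes (0%), with 684 genes (9.09%) at an unadjusted p under 0.05, and DESeq2 called 22. Of 13 members tested, 9 had a positive and 4 a negative log2 fold change, with a median of 0.27 against 0.01 over all genes, and 2 had an unadjusted p under 0.05. Col4a1 had 287 and 230 CPM after FVIO-MHT and 151, 136 and 160 CPM after PBS, or 259 ± 40.1 and 149 ± 12.5 CPM (SD, n = 2 and 3). Both FVIO-MHT libraries lie above the PBS libraries. The log2 fold change was 0.70 ± 0.28 with adjusted p = 0.510 in edgeR, and it lay between 0.58 and 0.82 when 1 library was left out. Pericyte/smooth muscle markers in the same barcodes summed to 23.1 and 41.2 CPM after FVIO-MHT and 10.5, 16.2 and 12.7 CPM after PBS, with 3 to 8 of 14 detected per library, and these groups do not overlap either. Endothelial markers summed to 110 and 183 CPM after FVIO-MHT and 155, 195 and 211 CPM after PBS. The class also pools clusters whose mixture differed between these libraries, as given above. The part of either marker sum or of this mixture in the Col4a1 difference was not tested. Col4a1 was higher after FVIO-MHT in both endothelial-like and tumour epithelial-like barcodes by value, and in neither after adjustment.

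Col1a2 in tumour epithelial-like barcodes had 56.4 and 41.2 CPM after FVIO-MHT and 1.76, 9.69 and 25.3 CPM after PBS, or 48.8 ± 10.7 and 12.3 ± 11.99 CPM. Its log2 fold change was 2.17 ± 0.65 with adjusted p = 0.457 in edgeR. Without the filter on low counts, a setting that called 151 genes, the adjusted p in edgeR was 0.00927, with a log2 fold change of 2.16. Of the 78 Col1a2 UMIs of the class, FVIO-MHT libraries 2 and 3 had 22 and 34 and PBS libraries 2 and 3 had 15 and 6. The PBS 1 value rests on fewer than 3 UMIs, below what could be measured. With the haemoglobin and keratin cluster added, a choice made after seeing the data, Col1a2 had 3.95 ± 0.65 (adjusted p = 0.262 in edgeR) and Col1a1 3.33 ± 0.76 (adjusted p = 0.272). These levels were a small part of those in fibroblast-like barcodes. The fibroblast markers in the same tumour epithelial-like barcodes summed to 851 and 559 CPM after FVIO-MHT and 617, 421 and 709 CPM after PBS, with 13, 10, 6, 9 and 12 of 14 detected in the same order of libraries. That sum is not specific to fibroblasts, since the marker Pcolce had 70.9% of its UMIs in tumour epithelial-like barcodes. Pcolce stood at 87.4 CPM there, against 6.45 CPM for the marker Dcn and 0.841 CPM for Lum. The pericyte/smooth muscle marker sums given for Col4a1 apply to the same barcodes and do not overlap between the groups. The fibrillar level in barcodes under 200 genes, given above, was also highest in FVIO-MHT 2, with PBS 3 next. The part of these measures, or of the mixture of clusters, in the Col1a2 difference was not tested.

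Of the 13 members, 2 (Col1a2 and Col4a1) did not overlap with FVIO-MHT above, where 17.2% of genes lay, and 1 (Col6a2) lay below, where 9.42% did. Col6a2 had 15 UMIs in FVIO-MHT 3 and 14, 36 and 6 in the PBS libraries, of 72 in the class. FVIO-MHT 2 had fewer than 3, so its value lies below what could be measured and the order rests on few UMIs. The log2 fold change of Col6a2 was -1.06 ± 0.63, or -3.28 without FVIO-MHT 3 and -0.47 without FVIO-MHT 2. Col1a1 had 2.09 ± 1.07, which was 3.02 without FVIO-MHT 3 and 0.33 without FVIO-MHT 2, and its groups overlapped. Col6a1 (-0.49 ± 0.43), Col5a1 (-0.45 ± 0.47), Col3a1 (-0.19 ± 1.16) and Col4a2 (0.31 ± 0.41) had overlapping groups. Col3a1 turned positive in 5 alternatives and when FVIO-MHT 2 was left out. The epithelial collagens with the most UMIs, Col7a1 (300 and 358 CPM after FVIO-MHT and 434, 181 and 165 CPM after PBS), Col8a1 (326 and 188 CPM against 200, 182 and 211 CPM), Col16a1 (359 and 60.6 CPM against 213, 84.6 and 105 CPM) and Col18a1 (185 and 175 CPM against 197, 58.8 and 148 CPM), overlapped too. The 2 FVIO-MHT libraries differed from each other for Col16a1 by more than the groups did.

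No collagen passed the filter on low counts in macrophage/monocyte-like barcodes, where edgeR called 0 of 2068 genes, with 89 genes (4.30%) at an unadjusted p under 0.05 and 2 called by DESeq2. Without that filter, a setting that called 21 genes, Col1a2 (log2 fold change 3.54, adjusted p = 0.00804) and Col1a1 (4.56, adjusted p = 0.0141) passed in edgeR. The low Col1a2 levels are given above. FVIO-MHT libraries 2 and 3 had 31 and 53 of its 88 UMIs in the class, and 30 and 15 of the 46 Col1a1 UMIs, so the remaining libraries had few of either.

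Of the genes that process and bind collagen, 0 passed at an adjusted p of 0.05 in edgeR in any comparison. Across whole tumours 8 of 9 proteoglycans and matricellular proteins tested had a positive log2 fold change (median 1.11 against -0.04 over all genes), as did 5 of 6 collagen-degrading proteases (median 1.85), 7 of 13 folding and modification genes, 4 of 9 crosslinking genes, 8 of 11 basement membrane partners and 2 of 6 receptors. Ctsk, a collagen-degrading cathepsin, had 27.6, 203 and 73.3 CPM after FVIO-MHT and 11.4, 10.2 and 29.7 CPM after PBS, and a log2 fold change of 2.77 ± 0.70 (adjusted p = 0.878 in edgeR). The groups overlap between FVIO-MHT 1 and PBS 3. Fibroblast-like barcodes held 45.4% of Ctsk UMIs and 17 osteoclast-like barcodes 43.5%, although Ctsk was also a naming marker of the osteoclast-like class. That class numbered 0, 7 and 8 barcodes after FVIO-MHT and 2, 0 and 0 after PBS, and its part was not tested. Mmp8, a neutrophil collagenase, had 1247, 108 and 6.87 CPM after FVIO-MHT and 30.7, 5.92 and 8.50 CPM after PBS, and neutrophil-like barcodes numbered 265, 396 and 5 after FVIO-MHT and 66, 9 and 8 after PBS. Mmp14 (1.11), P4hb (1.63), which is a subunit of prolyl hydroxylase, and P3h3 (-1.58) also had an unadjusted p under 0.05 and an adjusted p of 0.878. Within fibroblast-like barcodes 7 of 10 proteoglycans and matricellular proteins, 4 of 6 folding genes, 4 of 6 crosslinking genes and 3 of 4 proteases had a positive log2 fold change, against 52% of all genes, but 1 of 4 basement membrane partners (median -0.52) and 0 of 2 receptors (median -0.96) did. In tumour epithelial-like barcodes 8 of 13 folding genes, 4 of 5 crosslinking genes and 7 of 9 basement membrane partners had a positive one, against 51.4% of all genes. There 1 of 5 receptors (median -0.28), 1 of 3 proteoglycans and matricellular proteins (median -0.21) and 1 of 3 proteases (median -0.94) did.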

How the data were processed

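Drop-seq libraries from 3 FVIO-MHT and 3 PBS tumours were used. The authors deposited raw UMI counts for each gene in each barcode, made with STAR 2.7.2b on mm10 per the submitters' processing notes. Not given in the sources used here are the counter, its annotation, its use of strand and how 5000 barcodes per library were chosen. Deposited totals lay between 678337 and 2207534 UMIs. Of 27998 gene rows, 65 that repeated a symbol with identical counts were dropped, and all 44 collagens matched GENCODE vM21 (GRCm38) for positions.

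Barcodes with at least 200 genes and at most 20% mitochondrial UMIs were kept (the second limit removed 0). A doublet caller marked 23 of 6730 (0.342%, under the 0.5% below which it counts as not working), so doublets were not removed. In scanpy 1.11.5, counts were scaled to 10000, and 2000 variable genes without collagens, 30 components, 15 neighbours and Leiden resolution 1 gave the clusters. A class name needed 3 markers in 5% of barcodes at 2-fold, and the 10 leading genes could not point elsewhere. These details were settled after leading genes were seen. Members, lists and tests were chosen with earlier results of these data known.

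UMIs were summed per library and class, for classes with at least 20 barcodes in a library, and tested with edgeR 4.0.16 (quasi-likelihood, TMM, filterByExpr, Benjamini-Hochberg over all genes tested, threshold 0.05) in R 4.3.3, with group as the only term. The test was checked on simulated whole-tumour sums with a set spread and large changes in the better expressed genes. The fits within classes were not simulated, so that check does not show which changes they could find. Alternatives were DESeq2 1.42.0, library totals, no filter on low counts, 100 or 400 genes per barcode, Leiden resolution 2, per-barcode marker classes, a replicate block, and leaving out each library. Single values were compared by exact permutation tests, two-sided. Members with at least 100 UMIs were named with values, and per comparison the 6 members with the lowest p together with Col1a1, Col1a2, Col3a1, Col4a1 and Col4a2 where tested. From each list of collagen-related genes, those with the lowest p were eligible to be named.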

Additional observations from a re-analysis of the deposited data

Results flagged for a closer look

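Fibrillar collagens in the barcodes of FVIO-MHT 2 with fewer than 200 detected genes stood at 3442 CPM, above each PBS library. No main comparison used these barcodes, although the alternative with at least 100 genes took in part of them. The other FVIO-MHT libraries had 208 and 1629 CPM and the PBS libraries 79.8, 305 and 2376 CPM, so the groups overlap. The upper 95% counting bound of the highest PBS library was 2595 CPM, which covers counting error only and not the spread between libraries. The difference was not tested.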

How the results depend on the processing

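Of 358 alternative values of 25 named collagen log2 fold changes, 332 kept their direction, 15 reversed when 1 library was left out and 11 under another setting, and the cause was not tested. Genes called by edgeR numbered 0 in each class as reported. Across whole tumours DESeq2 called 185 and no filter 2, with 0 to 0 when 1 library was left out and 0 with the replicate block. In fibroblast-like barcodes the counts were 3 with DESeq2, 9 without the filter, 3 with the block, 3 with per-barcode marker classes, 1 with at least 1 barcode per library and 1 to 29 when 1 library was left out. In macrophage/monocyte-like barcodes they were 2, 21 and 1 for DESeq2, no filter and the block, and 0 to 2 with 1 library left out. In tumour epithelial-like barcodes they were 22, 151 and 4, and 0 to 234, the last without FVIO-MHT 2. Per-barcode marker classes moved the mean Col1a2 level in fibroblast-like barcodes to 27007 CPM, and at least 100 genes moved the endothelial-like Col4a1 log2 ratio to 0.90. Where leaving out a library left 1 sample in a group, that sample was assumed to vary like the others.

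Reversed log2 fold changes were, across whole tumours, Col3a1 at -0.077 with at least 100 genes and Col4a2 at -0.33 with the block. In fibroblast-like barcodes they were Col12a1 at 1.20 with per-barcode marker classes, Col6a2 at 0.093 without the filter and Col3a1 at 0.12 with at least 1 barcode per library. In tumour epithelial-like barcodes they were Col5a1 at 0.031 with the block, and Col3a1 at 1.41 with at least 100 genes, 0.55 with at least 400, 0.26 at Leiden resolution 2, 1.08 with per-barcode marker classes and 1.46 with the haemoglobin and keratin cluster added. With 1 library left out, whole-tumour Col3a1 lay between -0.53 and 3.37 and Col4a2 between -0.37 and 0.67. Fibroblast-like Col1a1 lay between -0.29 and 1.17, Col14a1 between -1.91 and 0.57, Col12a1 between -1.31 and 1.24, Col3a1 between -0.95 and 0.58 and Col4a1 between -1.75 and 0.83. Tumour epithelial-like Col6a1 lay between -1.31 and 0.10, Col3a1 between -0.83 and 0.12 and Col4a2 between -0.000621 and 0.60.

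Same-numbered libraries did not deviate together (correlations of 0.156, 0.0186 and -0.0846), so replicate numbers were not taken as pairs. Depth limits the members with few UMIs, and classes with few barcodes per library rest on added fits or on values alone.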
